A study of Mus musculus with 12 samples.

Results

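The effect of IL-4 on macrophages exposed to Wnt3a was set against its effect without Wnt3a, gene by gene. The question was for which genes the IL-4 response was the same in both settings, smaller with Wnt3a or larger with Wnt3a. All 12 samples of the experiment entered, and of the 48526 genes in the count table the 12421 with at least 10 counts in at least 3 libraries were tested. Bone marrow-derived macrophages (BMDMs) are primary macrophages grown from bone marrow in the presence of mCSF. Here they came from 3 C57Bl/6J female mice, and on day 7 parallel cultures from every mouse received no stimulus or, for 16 hours, Wnt3a (100 ng/mL), IL4 (100 pg/mL) or the combination. All groups are therefore wild-type primary cultures that share the strain, the sex and the growth factor, and each value below comes from a whole culture of 1 mouse.

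The Wnt3a and Wnt3a+IL4 columns of a mouse share reads, so they were first solved for 2 parts. The difference is the Wnt3a column minus the Wnt3a+IL4 column, and the remainder is what is left of the Wnt3a+IL4 column once the difference is subtracted from it. Neither part held a negative value in any mouse (0 of 48526 genes). The labels do not say which part is which culture. In the first assignment the difference stands for Wnt3a, with Wnt3a+IL-4 as the remainder, and the reverse assignment exchanges them. In what follows the IL-4 change with Wnt3a is the remainder against the difference, unless the reverse is named. The interaction is this change minus the change with IL-4 alone on the log2 scale, so that an interaction of 0 means equal fold changes. A gene said to rise or fall with Wnt3a, or between the parts, does so from the difference to the remainder. That is the change with IL-4 among cells with Wnt3a, not the effect of Wnt3a itself.

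IL-4 binds a receptor built on IL-4Rα, JAK kinases then phosphorylate STAT6, and STAT6 dimers enter the nucleus and switch on genes of alternative activation, among them arginase, mannose receptor and resistin-like secreted products. SOCS proteins, themselves induced by cytokines, act back on the receptor and the kinases. Wnt3a is a lipid-modified ligand of Frizzled receptors, best known for stabilizing β-catenin. Where stimuli multiply each other's effects on transcription, the effects are additive on the log scale. Stimuli can also act additively on the linear scale, so additivity on the log scale does not show independent action.

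Total counts lay between 13342492 and 17453377 in the 12 libraries. The 10 macrophage marker genes were all tested and summed to between 44300 and 68758 CPM (counts relative to library size, scaled with TMM factors) in every library. Of the other marker lists, the lymphocyte list (2 of 10 genes tested, *Trac* at 0 in every library, led by *Ighm*) summed to 77.1 to 84.9 CPM in untreated cells, 34.1 to 46.5 CPM with IL-4, 8.13 to 14.1 CPM in the difference and 8.38 to 9.92 CPM in the remainder. The erythroid and megakaryocyte list, led by *Pf4*, summed to 12.8 to 14.5 CPM in untreated cells and 46.0 to 113.4 CPM in the parts. The neutrophil list lay between 64.8 and 148.1 CPM, the stromal list between 7.56 and 37.2 CPM, and the list for mast cells, basophils and eosinophils between 0.54 and 4.20 CPM. The part of these cells in the results was not tested, and in bulk RNA a lower share of a cell type and less RNA per cell cannot be told apart.

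By edgeR's quasi-likelihood test (Benjamini-Hochberg adjusted p under 0.05), IL-4 alone called 422 of 12421 genes (3.4% of those tested), 287 higher (2.31%) and 135 lower (1.09%). The remainder against the difference called 652 genes (5.25%), 356 higher (2.87%) and 296 lower (2.38%). The comparisons share no library, and 219 genes (1.76%) were called in both in the same direction, 160 higher and 59 lower. These 219 genes were 51.9% of the genes called with IL-4 alone and 33.6% of those called between the parts. A further 3 genes, *Pls3*, *Gm26532* and *Sort1*, were called in both in opposite directions. With single libraries left out, the count for IL-4 alone went to 250 without the untreated library of mouse 3, 264 without the IL-4 library of mouse 1 and 266 without that of mouse 2. The count between the parts went to 364 and 391 without the difference of mouse 2 and of mouse 3, and to 357, 1159 and 355 without the remainder of mouse 1, 2 and 3. Without mouse 3 in all groups the counts were 77 and 97.

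In the 219 genes, the log2 change with Wnt3a was smaller than that with IL-4 alone in 121 and larger in 98. The median ratio of the log2 changes was 0.95, with quartiles of 0.75 and 1.19. In 84 of the 219 the interaction had the other sign in CPM. Which comparison chose a gene moved the balance. Of the 422 genes called with IL-4 alone, 277 had a smaller and 100 a larger change with Wnt3a, and 45 had a change of the opposite sign. Of the 652 genes called between the parts, 414 had a smaller and 127 a larger change with IL-4 alone, and 111 had the opposite sign. Each list thus leaned towards the comparison that had chosen it, and neither balance by itself describes a response that is weaker or stronger with Wnt3a.

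**Figure D1:**
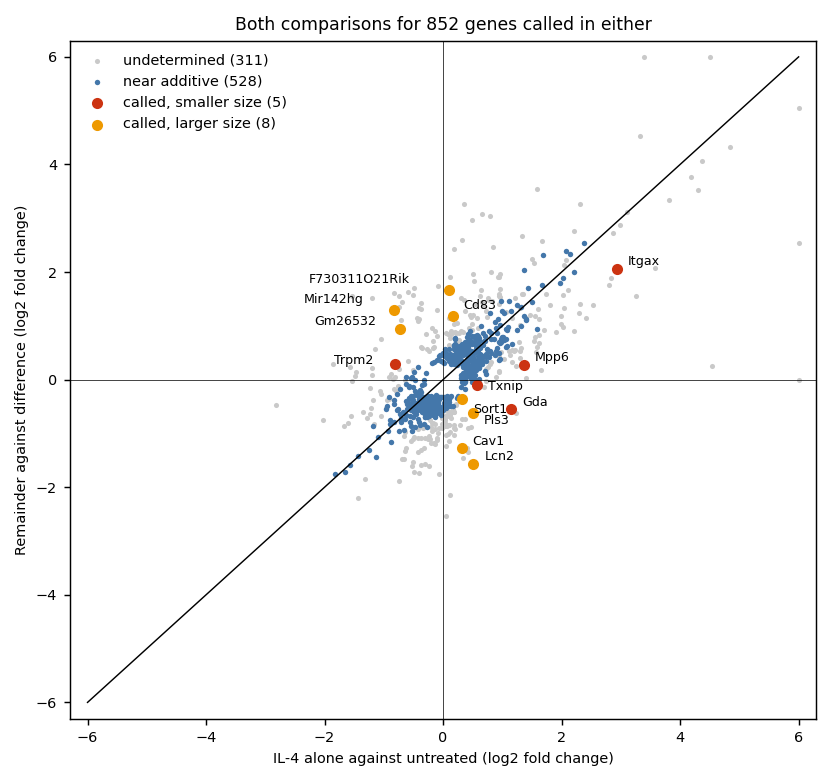
Log2 fold change with IL-4 alone (x axis) and between remainder and difference (y axis) for the 852 genes called in either comparison, 1 point per gene, with the line of equal changes. Blue points lie near the line (528 genes), grey points are undetermined (311), red (5) and orange (8) points mark called interactions, and 5 genes beyond 6 log2 units are drawn at that limit.

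Together the 2 comparisons called 852 genes, and each was placed by its interaction. A gene was taken as near additive where the interaction was not called and its 95% interval lay within 1 log2 unit (2-fold) of 0. By this rule 528 of the 852 genes (62.0%) were near additive (253 with a margin of 1.5-fold), of which 279 had higher and 198 lower values in both comparisons and 51 had opposite signs. The margin can be larger than the IL-4 change itself, so the class does not show equal responses. *Dok2* and *Socs5*, given below, met the rule although their changes were smaller with Wnt3a. Another 311 genes (36.5%) were undetermined, since their interval reached past 2-fold without a call, and in 86 of these the interval was wider than 1 log2 unit on either side. The interaction itself was called in 13 genes (0.105% of those tested), 5 positive (0.0403%) and 8 negative (0.0644%), all of them among the 852. DESeq2 called 165 genes, and edgeR with every gene of at least 1 count kept called 575, in both cases with all 13 among them. Over all genes the median interaction was 0.00 with a median standard error of 0.19, and 1576 genes had an unadjusted p under 0.05, 749 positive and 827 negative. Without the difference of mouse 2 or of mouse 3 or the remainder of mouse 3, between 340 and 346 genes were near additive, and 816 without the remainder of mouse 2. By size, 5 of the 13 changes were smaller with Wnt3a (blunted) and 8 were larger (amplified).

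The 13 calls depended on single libraries. The signs of the values held in every fit below, but the genes had been chosen by these same libraries. Kept signs are therefore no independent support. Without the untreated library of mouse 3, the IL-4 library of mouse 2 or the remainder of mouse 3, 0 of the 13 remained called, with adjusted p of at least 0.055 (edgeR). Without mouse 3 in all groups, edgeR called 0 genes (834 at an unadjusted p under 0.05), and the 13 values lay between -1.78 and 2.57, each with its former sign. Leaving out other single libraries kept 1 of the 13 (remainder of mouse 1), 4 (IL-4 of mouse 1 or of mouse 3), 5 (untreated of mouse 2, difference of mouse 1 or of mouse 2), 6 (difference of mouse 3), 8 (untreated of mouse 1) and 12 (remainder of mouse 2). Without the remainder of mouse 2 the whole count rose to 43. None of the 13 was called with every library left out in turn (0 genes), and all 13 kept the sign of their interaction in each of these fits and in each of the 3 mice taken alone.

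*Trpm2* (ENSMUSG00000009292, chromosome 10 from 77907722 to 77970563, mm10), a cation channel opened by ADP-ribose under oxidative stress, had 25.3, 25.3 and 25.6 CPM in the untreated cells of mouse 1, 2 and 3 and 12.5, 14.7 and 16.5 CPM with IL-4. It had 37.5, 36.4 and 33.7 CPM in the difference and 45.8, 44.7 and 40.3 CPM in the remainder. IL-4 alone lowered it in every mouse, while with Wnt3a every mouse had more in the remainder, and no library of one group overlapped another. The log2 fold change was -0.81 with IL-4 alone (standard error 0.11, adjusted p = 0.00054, edgeR) and 0.28 between the parts (adjusted p = 0.14, edgeR). The interaction was 1.09 (standard error 0.15, adjusted p = 0.017, edgeR).

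*Mpp6* (ENSMUSG00000038388, chromosome 6 from 50110241 to 50198939), a scaffold protein of the plasma membrane, had 22.3, 17.8 and 18.9 CPM in untreated cells, 52.1, 49.9 and 50.5 CPM with IL-4, 23.9, 17.2 and 20.3 CPM in the difference and 23.7, 26.4 and 24.2 CPM in the remainder. The IL-4 libraries stood above all others, the difference overlapped the untreated libraries and the remainder lay slightly above them. The interaction was -1.09 (standard error 0.17, adjusted p = 0.029, edgeR). *Txnip* (ENSMUSG00000038393, chromosome 3 from 96557957 to 96561883), an arrestin-like protein that binds thioredoxin and restrains glucose uptake, was likewise highest with IL-4 alone. It had 337, 355 and 349 CPM in untreated cells, 512, 535 and 504 CPM with IL-4, 298, 317 and 348 CPM in the difference and 291, 296 and 313 CPM in the remainder, an interaction of -0.67 (standard error 0.10, adjusted p = 0.029, edgeR). Of the exon bases of *Txnip*, 19.4% overlap a gene on the other strand, where reads of the pair cannot be told apart without strand.

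*Gda*, guanine deaminase of purine breakdown, had 16, 10.5 and 10.8 CPM in untreated cells, 28.3, 25.2 and 29.4 CPM with IL-4, 73.7, 48.3 and 46.8 CPM in the difference and 36.6, 45.2 and 33.4 CPM in the remainder. It rose with IL-4 alone (1.15, adjusted p = 0.0041, edgeR), and each mouse had less in the remainder than in the difference (-0.55, adjusted p = 0.12, edgeR). Its interaction was -1.70 (standard error 0.27, adjusted p = 0.031, edgeR).

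*Itgax* (ENSMUSG00000030789, chromosome 7 from 128129547 to 128150657) encodes integrin αX, the CD11c chain carried by dendritic cells and activated macrophages. It had 20.05, 25.2 and 24 CPM in untreated cells, 200, 175 and 154 CPM with IL-4, 60.7, 55.1 and 59.9 CPM in the difference and 240.2, 232 and 260.3 CPM in the remainder. The remainder was the highest group and overlapped no other. *Itgax* was the blunted gene called higher in both comparisons, by 2.94 with IL-4 alone and 2.06 with Wnt3a (adjusted p = 2e-09 and 9.1e-08, edgeR). The interaction of *Itgax* was -0.88 (standard error 0.15, adjusted p = 0.045, edgeR). Its direction depended on the scale. In CPM the IL-4 step was 32.4 ± 35.6 CPM (SD, n = 3 mice) larger with Wnt3a, whereas the other 12 interactions had the same sign on both scales. With the mouse as replicate block *Itgax* was not called (adjusted p = 0.0897, edgeR), and of its transcripts' 50-base stretches 8.02% also occur in other genes, most often *Itgad*. The dendritic cell list, with 4 of 10 genes tested, 0 genes at 0 in every library and *Ccr7*, *Batf3* and *Zbtb46* in the lead, summed to 3.83 to 4.57 CPM in untreated cells, 9.45 to 10.7 CPM with IL-4, 4.94 to 9.33 CPM in the difference and 11.96 to 26.3 CPM in the remainder. The part of such cells in the *Itgax* values was not tested.

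None of the 8 amplified genes (0 of 8) was called with IL-4 alone in the direction it took with Wnt3a. In 6 of the 8 the changes had opposite signs, and in *Cd83* and *F730311O21Rik* the change with IL-4 alone was not called. Of the 13 genes, 9 had opposite signs and in 8 the remainder lay closer to the untreated level than the difference did.

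*Lcn2* (ENSMUSG00000026822, chromosome 2 from 32384633 to 32388252), a siderophore-binding protein of the acute-phase response, had 5.05, 5.72 and 5.08 CPM in untreated cells and 6.53, 6.45 and 9.74 CPM with IL-4. It had 60.2, 43.2 and 41.4 CPM in the difference and 20.7, 15.1 and 13 CPM in the remainder, so the remainder was lower in every mouse but stayed above all libraries without Wnt3a. The log2 change between the parts was -1.57 (standard error 0.19, adjusted p = 0.00021, edgeR) and the interaction -2.08 (standard error 0.29, adjusted p = 0.017, edgeR). *Cav1* (ENSMUSG00000007655, chromosome 6 from 17306335 to 17341452), caveolin-1 of membrane caveolae, moved alike. It had 12.4, 12 and 10.7 CPM untreated, 17.7, 14.8 and 11 CPM with IL-4, 52.9, 45.4 and 40.8 CPM in the difference and 20.9, 19.7 and 16.8 CPM in the remainder, an interaction of -1.59 (standard error 0.22, adjusted p = 0.017, edgeR). The untreated and IL-4 libraries of *Cav1* overlapped, while the difference stood apart from all others.

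*Pls3*, an actin-bundling plastin, and *Sort1*, the sorting receptor sortilin, were called higher with IL-4 alone and lower in the remainder. *Pls3* had 23.9, 20 and 24.8 CPM untreated, 35.7, 29 and 32.8 CPM with IL-4, 38.4, 33.5 and 37.3 CPM in the difference and 21.6, 25.3 and 24 CPM in the remainder (interaction -1.13, adjusted p = 0.017, edgeR). *Sort1* had 196, 217 and 206 CPM, 279.8, 249 and 246 CPM, 171, 175 and 182 CPM and 130.3, 130.03 and 153 CPM in the same order (interaction -0.68, adjusted p = 0.049, edgeR). With the mouse as replicate block *Sort1* was not called (adjusted p = 0.0897, edgeR), and *Pls3* was.

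*Cd83* (ENSMUSG00000015396, chromosome 13 from 43784775 to 43803132), an immunoglobulin-family surface protein of activated antigen-presenting cells, had 100.4, 111 and 107 CPM in untreated cells and 122, 117 and 117 CPM with IL-4. In the parts it was far lower, at 14.1, 19.6 and 20.8 CPM in the difference and 38.4, 44.7 and 40.1 CPM in the remainder, and the 3 libraries of each part did not overlap those of the other. The remainder was higher by 1.18 (standard error 0.12, adjusted p = 4.6e-05, edgeR), against 0.16 with IL-4 alone (adjusted p = 0.57, edgeR), an interaction of 1.02 (adjusted p = 0.029, edgeR). Even so, the remainder held fewer *Cd83* reads than untreated cells in every mouse.

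The remaining 3 calls were positive interactions of long non-coding transcripts (lincRNA in the annotation) with few reads. *F730311O21Rik* had 3.72, 2.63 and 4.07 CPM in the difference and 11.1, 9.77 and 12.1 CPM in the remainder, against 12.1 to 14.8 CPM untreated and 11.4 to 17 CPM with IL-4. *Gm26532* fell with IL-4 alone (-0.72, adjusted p = 0.023, edgeR) and was higher in the remainder (0.94, adjusted p = 0.0058, edgeR). *Mir142hg*, the host transcript of the blood cell microRNA miR-142, went from 10.8, 9.39 and 7.28 to 2.94, 5.56 and 7.14 CPM with IL-4 alone and from 3.03, 2.38 and 2.47 to 6.52, 6.88 and 5.98 CPM between the parts. Their interactions were 1.56, 1.66 and 2.11 (adjusted p = 0.031, 0.017 and 0.049, edgeR). With the mouse as replicate block *F730311O21Rik* (adjusted p = 0.0725, edgeR) and *Mir142hg* (adjusted p = 0.0897, edgeR) were not called.

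**Figure D2:**
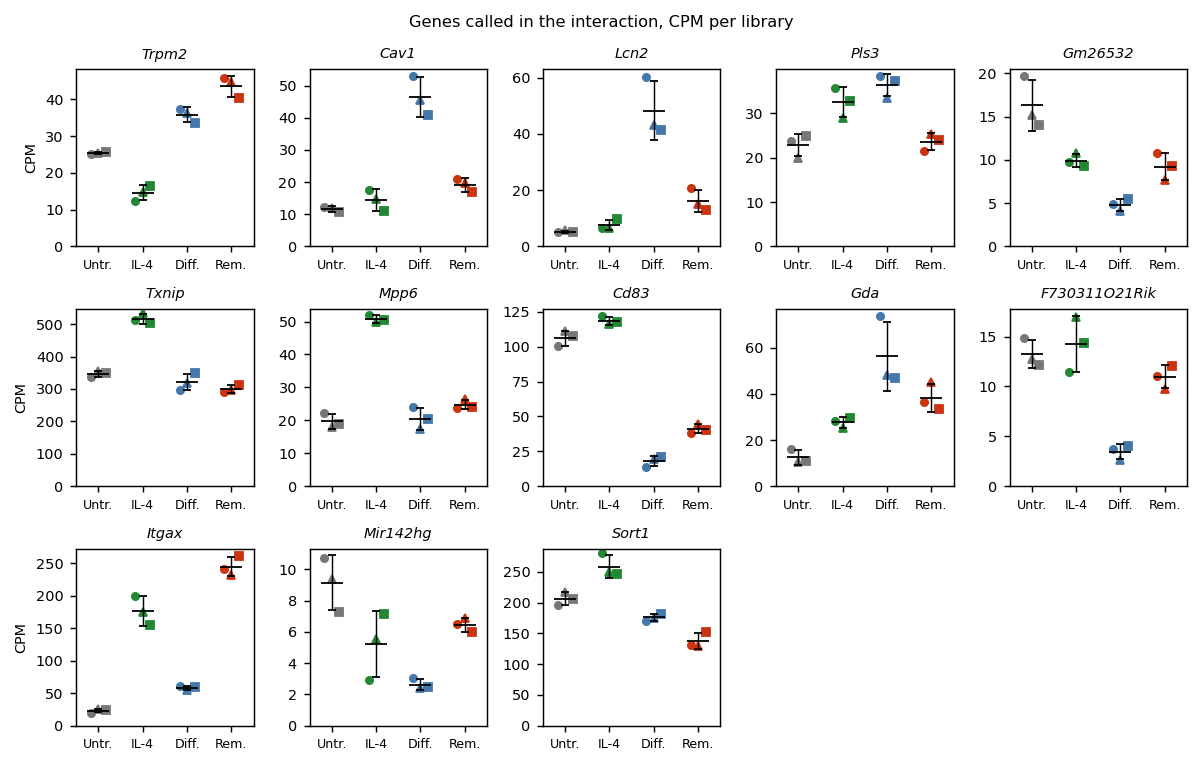
CPM in the 12 libraries for each of the 13 genes with a called interaction, with untreated (Untr.), IL-4, difference (Diff.) and remainder (Rem.) on the x axis. Circles, triangles and squares are mouse 1, 2 and 3, bars give the mean ± SD, and in *Trpm2*, *Mpp6*, *Txnip* and *Gda* the step from untreated to IL-4 has no counterpart of the same size and sign between the parts.

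Near additive genes included some of the strongest IL-4 responses. *Egr2* (ENSMUSG00000037868, chromosome 10 from 67535475 to 67542188), a zinc finger transcription factor of the early growth response family, had 8.81, 10.5 and 7.09 CPM in untreated cells and 45.6, 47.5 and 44.1 CPM with IL-4, and 4.46, 5.01 and 4.94 CPM in the difference and 27.9, 27 and 28.7 CPM in the remainder. The remainder and the IL-4 libraries stood above the other groups without overlap. The log2 changes were 2.38 (standard error 0.12, adjusted p = 8.9e-08, edgeR) and 2.54 (standard error 0.13, adjusted p = 9.1e-08, edgeR), so the interaction was 0.16 with a 95% interval from -0.23 to 0.54.

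*Mrc1* (ENSMUSG00000026712, chromosome 2 from 14229392 to 14332057), the mannose receptor, had 47.9, 36.4 and 66.8 CPM untreated, 206, 191 and 269.7 CPM with IL-4, 27.9, 22.5 and 35 CPM in the difference and 133, 153 and 142 CPM in the remainder. Each IL-4 library and each remainder library exceeded every library of its baseline group. The interaction was 0.19 (95% interval -0.41 to 0.78). *Slc7a2*, a transporter of arginine and other cationic amino acids, started from a higher level with Wnt3a, with 8.28, 5.66 and 5.64 CPM untreated, 26, 29.5 and 27.2 CPM with IL-4, 19.6, 14 and 11.3 CPM in the difference and 86, 68.1 and 83.5 CPM in the remainder. Its interaction was 0.32 (95% interval -0.24 to 0.89), while in CPM the step with Wnt3a was 43.1 ± 11.3 CPM (SD, n = 3 mice) larger.

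*Atp6v0d2*, a subunit of the proton pump, rose by 2.21 with IL-4 alone and 2.01 with Wnt3a, *Dhrs9*, a retinol dehydrogenase, by 1.98 and 1.8, and *Tmem26*, a multipass membrane protein, by 2.03 and 1.90 (adjusted p at most 4.9e-05, edgeR). *Atp6v0d2* lay at 31 to 35.6 CPM in untreated cells, 142 to 165 CPM with IL-4, 14.8 to 18.3 CPM in the difference and 52.5 to 91.8 CPM in the remainder. *Tmem26* lay at 9.96 to 11.9 CPM with IL-4 and 8.48 to 12.7 CPM in the remainder, and *Dhrs9* 25.5 to 27.1 CPM and 17.8 to 19.8 CPM. The rule that chose these genes asked for close fold responses and the same direction in every mouse, so their closeness is no result. The difference started below the untreated level in *Egr2*, *Mrc1* and *Atp6v0d2*, above it in *Slc7a2*, and overlapped it in *Tmem26* and *Dhrs9*.

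Among genes that fell, the paired receptor locus on chromosome 5 was near additive. *Pilra* (ENSMUSG00000046245, chromosome 5 from 137821952 to 137836281), an inhibitory receptor of myeloid cells, had 29.5, 24.7 and 31 CPM untreated, 7.67, 9.2 and 7.22 CPM with IL-4, 83.4, 82.2 and 78.4 CPM in the difference and 23.1, 26.7 and 22.5 CPM in the remainder. The difference stood above all other libraries (log2 change from untreated cells 1.52) and the remainder overlapped the untreated level (-0.24). The IL-4 changes of *Pilra*, chosen by the same rule for close changes, were -1.82 and -1.75 (interaction 0.07, 95% interval -0.29 to 0.42). Its activating partners *Pilrb1* (-1.65 and -1.72) and *Pilrb2* (-1.44 and -1.41) fell by like amounts (adjusted p at most 0.00059, edgeR for the 3 genes), but 30.1% and 29.2% of their 50-base stretches occur in another gene, mostly each other, so their reads are uncertain. *Fpr1*, the receptor for bacterial formyl peptides, fell from values of 9.07 to 19 to values of 4.09 to 4.79 CPM with IL-4 and from values of 9.65 to 20.1 to values of 4.06 to 5.65 CPM between the parts, with an interaction of -0.02 (95% interval -0.90 to 0.85). The mice differed in sign, and without mouse 1 its interaction was 0.45.

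**Figure D3:**
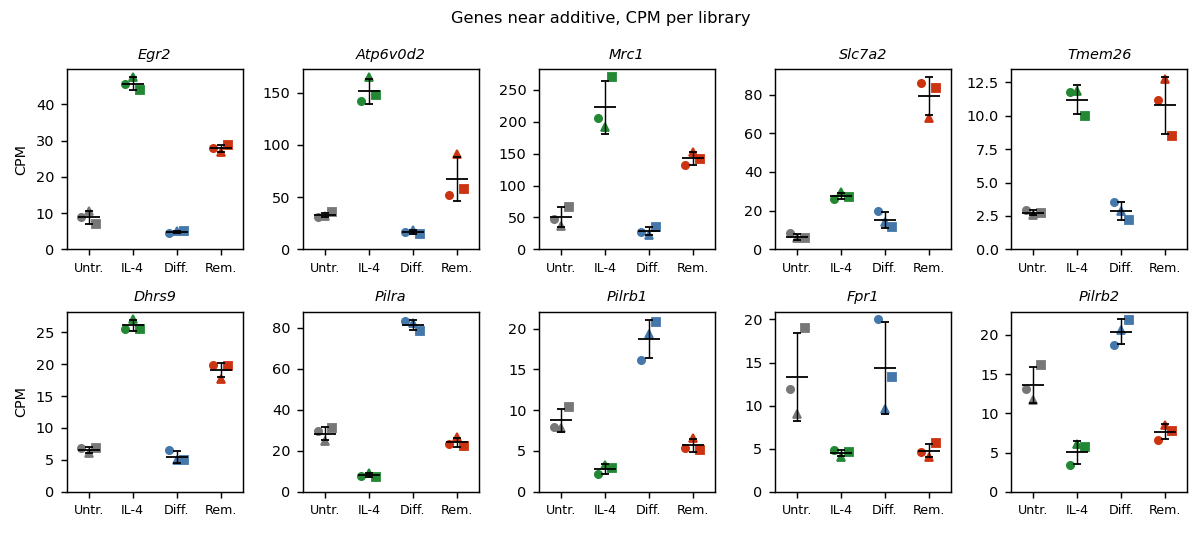
CPM in the 12 libraries for the 6 highest and 4 lowest near additive genes, with groups, symbols (mouse 1, 2 and 3 as circle, triangle and square) and bars (mean ± SD) on linear axes from 0. In *Egr2*, *Mrc1* and *Slc7a2* both steps go up and in *Pilra*, *Pilrb1*, *Fpr1* and *Pilrb2* both go down, in *Pilra* from a starting level that is higher in the difference than in untreated cells.

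Some IL-4 genes gave large point estimates that the edgeR test did not call. *Arg1* (ENSMUSG00000019987, chromosome 10 from 24915221 to 24927484), the arginase that splits arginine into ornithine and urea, had 0, 0.129 and 0.0627 CPM in untreated cells and 1.56, 1.66 and 1.37 CPM with IL-4. It had 0, 0.0611 and 0 CPM in the difference and 25, 5.96 and 7.49 CPM in the remainder, where mouse 1 stood above the others. Untreated and difference libraries held 3 counts or fewer (at most 3 counts is taken as the floor), so the fold changes are lower bounds: *Arg1* was at least 8.46-fold higher with IL-4 alone and at least 67-fold higher in the remainder than in the difference. The interaction was not called (adjusted p = 0.52, edgeR; 95% interval -2.04 to 10.62), and since both baselines were at the floor its value of 4.29 has no size of its own. Each remainder library nonetheless held more *Arg1* than every IL-4 library, with a log2 change between them of 3.06 (standard error 0.49, adjusted p = 0.00038, edgeR).

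*Il20rb*, a receptor subunit for cytokines of the IL-20 group, had 0.967, 0.708 and 0.69 CPM untreated, 0.659, 1.34 and 1.01 CPM with IL-4, 1.6, 1.16 and 1.24 CPM in the difference and 9.81, 7.37 and 7.36 CPM in the remainder. The remainder overlapped no other group, and the interaction was 2.28 (standard error 0.40, adjusted p = 0.054 by edgeR and 0.00259 by DESeq2). It was called by edgeR without the remainder of mouse 2. *Cbr2*, a carbonyl reductase, rose by 0.84 with IL-4 alone and 2.46 with Wnt3a (adjusted p = 0.049 and 3.9e-05, edgeR), from values of 2.06 to 2.33 CPM in the difference to values of 9.77 to 15.9 CPM in the remainder (interaction 1.62, adjusted p = 0.09 by edgeR, which called it without the remainder of mouse 2, and 0.00256 by DESeq2). *Pik3c2a*, a class II phosphoinositide kinase, was lower in the remainder (-1.75, adjusted p = 0.0058, edgeR) with -0.08 for IL-4 alone and an interaction that missed the threshold (-1.68, adjusted p = 0.16 by edgeR, which called it without mouse 2, and 0.118 by DESeq2). Of the 50-base stretches of *Cbr2*, 12.1% occur in another gene, and 12.3% of the exon bases of *Pik3c2a* overlap a gene on the other strand.

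Some secreted products of alternative activation were lower in the remainder than with IL-4 alone. *Retnla* (ENSMUSG00000061100, chromosome 16 from 48842551 to 48844461), the resistin-like molecule RELMα, had 46.8, 34.2 and 44.6 CPM with IL-4 and 3 counts or fewer in each of the 9 other libraries. It was at least 232-fold higher with IL-4 than without, and at least 221-fold and 219-fold higher with IL-4 alone than in the remainder and in the difference. No fold change between the parts can be given, because both were at the floor. *Retnla* passed the count filter through its IL-4 libraries alone. Its interaction (adjusted p = 0.18 by edgeR and 8.97e-05 by DESeq2) rests on groups at the floor, so no reading is drawn from either p. The low level in the parts does not depend on the assignment, since both were at the floor.

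*Rnase2a*, a ribonuclease of the eosinophil-associated family, had 0, 0 and 0 CPM in untreated cells, 84.7, 36.7 and 49.3 CPM with IL-4, 0, 0.122 and 0.291 CPM in the difference and 7.02, 1.91 and 4.34 CPM in the remainder. It was at least 315-fold higher with IL-4 alone, and the remainder was below every IL-4 library. *Mgl2*, a galactose-binding lectin with 13.1% of its 50-base stretches in other genes (most often *Clec10a*), had 0.752, 0.836 and 0.878 CPM untreated, 12.1, 10.8 and 11.9 CPM with IL-4, 0.401, 0.183 and 0.8 CPM in the difference and 6.02, 3.13 and 4.6 CPM in the remainder, with log2 changes of 3.81 and 3.34. Its interaction of -0.47 (95% interval -1.56 to 0.62) was undetermined, and without mouse 3 or the difference of mouse 3 it turned to 0.10 and 0.11. *Chil3*, a chitinase-like lectin, rose with IL-4 alone (0.96, adjusted p = 0.00038, edgeR) and had 0.38 with Wnt3a (adjusted p = 0.11, edgeR). *Igf1*, insulin-like growth factor, was near additive with the larger change on the Wnt3a side, 0.98 and 1.45 (adjusted p at most 2.6e-05, edgeR). The pattern of *Retnla* and *Rnase2a* was therefore not shared by all secreted products of the list.

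**Figure D4:**
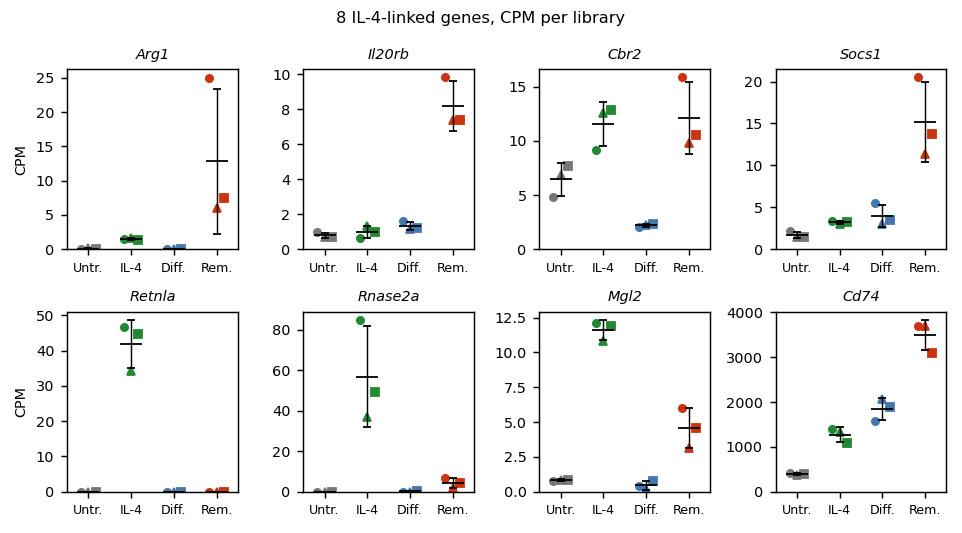
CPM in the 12 libraries for *Arg1*, *Il20rb*, *Cbr2* and *Socs1* (upper row), which reach their highest values in the remainder or, for *Cbr2*, in the remainder of mouse 1, and for *Retnla*, *Rnase2a*, *Mgl2* and *Cd74* (lower row). Circles, triangles and squares are mouse 1, 2 and 3, bars give the mean ± SD, and *Retnla* lies at the axis in every library but those with IL-4 alone.

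The promoters of 3 of these genes are shown because they hold a STAT6-type motif (TTC and GAA with any 4 bases between) and their genes fall into different classes: *Retnla* was at the floor in both parts, *Itgax* was blunted and *Tmem26* was near additive. The 250 bases before the RefSeq start are given 5′ to 3′ (GRCm38.p6, the build called mm10), in lower case with each match to the motif in capitals. *Retnla* lies at chr16:48842359-48842608 on the + strand, *Itgax* at chr7:128129300-128129549 on the + strand and *Tmem26* at chr10:68723496-68723745 on the + strand.
Retnla: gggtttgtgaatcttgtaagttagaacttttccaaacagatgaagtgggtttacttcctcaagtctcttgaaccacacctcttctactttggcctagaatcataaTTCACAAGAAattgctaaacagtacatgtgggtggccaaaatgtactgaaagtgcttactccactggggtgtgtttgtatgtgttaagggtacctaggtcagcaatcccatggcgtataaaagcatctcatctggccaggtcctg
Itgax: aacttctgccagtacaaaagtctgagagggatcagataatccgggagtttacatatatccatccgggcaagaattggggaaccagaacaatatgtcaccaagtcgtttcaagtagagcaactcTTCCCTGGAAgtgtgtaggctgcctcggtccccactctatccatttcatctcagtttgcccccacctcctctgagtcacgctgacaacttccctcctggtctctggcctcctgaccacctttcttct
Tmem26: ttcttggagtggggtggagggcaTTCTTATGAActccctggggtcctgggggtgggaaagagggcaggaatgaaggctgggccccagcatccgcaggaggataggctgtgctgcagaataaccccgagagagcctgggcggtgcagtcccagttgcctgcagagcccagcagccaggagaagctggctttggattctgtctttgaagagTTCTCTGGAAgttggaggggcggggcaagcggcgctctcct
The motif, which reads the same on both strands, occurred in 5.85% of all 32851 such windows and in 5.7% of the 9480 tested genes with a window. It occurred in 12 of the 124 genes with a window that were called higher in both comparisons (9.68%), in 1 of 47 called lower in both (2.13%), in 17 of 231 near additive genes with higher values in both (7.36%) and in 2 of the 9 genes with a called interaction and a window, *Itgax* and *Lcn2*. The shorter STAT3-type motif (TTC and GAA with any 3 bases between, also the same on both strands), searched separately, occurred in 7.05% of tested genes, in 5 of the 124 (4.03%), in 6 of the 47 (12.8%) and in 0 of the 9. These matches describe letters in a window and not binding.

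The gene lists below are described by their counts, and members named beyond the highest changes were chosen after their values were seen. Over all 12421 tested genes, 2.31% were higher and 1.09% lower with IL-4 alone, and 2.87% and 2.38% between the parts. In both the same way 1.76% were called. The edgeR interaction was called in 0.105%, and 1576 genes had an unadjusted p under 0.05. With 0.105% called over all genes, 0 calls in a list say nothing about that list. In the receptor and proximal signalling list, 13 of 14 genes were tested, 1 was higher with IL-4 alone and 2 were higher and 1 lower with Wnt3a. *Dok2*, an adaptor that dampens receptor tyrosine signals, rose in both (0.94 and 0.36, adjusted p = 4e-05 and 0.044, edgeR; interaction -0.58, 95% interval -0.86 to -0.29). *Irs2*, the adaptor of the IL-4 and insulin receptors, rose between the parts (0.57, adjusted p = 0.017, edgeR), and *Il13ra1*, a shared receptor chain, fell (-1.08, adjusted p = 0.0039, edgeR). *Il4ra*, the IL-4 receptor chain itself, had 133 to 165 CPM untreated, 121 to 137 CPM with IL-4, 209 to 237 CPM in the difference and 171 to 201 CPM in the remainder. It was higher in both parts than without Wnt3a, but its IL-4 changes were not called in either comparison, and its interaction was 0.00 (95% interval -0.29 to 0.29). The kinase gene *Jak2* had 0.41 and 0.03, called in neither. *Stat6* (-0.01, 95% interval -0.25 to 0.23) and *Stat3* (-0.13, 95% interval -0.36 to 0.10) had interactions within 2-fold of 0.

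Of the 8 SOCS genes, all were tested, 1 was higher with IL-4 alone and 2 with Wnt3a. *Socs1*, the feedback inhibitor that binds JAK kinases, had 2.15, 1.48 and 1.44 CPM untreated, 3.42, 3.07 and 3.25 CPM with IL-4, 5.49, 2.99 and 3.49 CPM in the difference and 20.5, 11.3 and 13.7 CPM in the remainder, and the remainder overlapped no other group. It rose between the parts (1.92, adjusted p = 0.00036, edgeR) with 0.93 for IL-4 alone (adjusted p = 0.14, edgeR), and the interaction of 0.99 was not called (95% interval 0.15 to 1.83, adjusted p = 0.31, edgeR). *Cish*, a relative that binds cytokine receptors, rose between the parts as well (1.41, adjusted p = 0.0043, edgeR), with an interaction of 0.86 (adjusted p = 0.43, edgeR). *Socs2* (0.89 and 0.77) and *Socs3* (-0.18 and -0.27) were called in neither comparison, and *Socs5*, the gene called with IL-4 alone (0.37), had -0.02 with Wnt3a.

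Transcription regulators linked to IL-4 held 28 tested genes, of which 9 were higher and 3 lower with IL-4 alone and 8 higher and 1 lower with Wnt3a, 6 of them in both the same way. Besides *Egr2*, these were *Irf4*, *Batf3*, *Nfil3*, *Pparg* and *Myc*. *Irf4*, an interferon regulatory factor required for alternative activation, rose by 2.03 and 1.58, *Batf3* of dendritic cell development by 2.10 and 1.68, and *Pparg*, a lipid-sensing nuclear receptor, by 0.92 and 0.87 (adjusted p at most 0.0031, edgeR). *Nfil3*, a basic leucine zipper factor, had the lowest interaction p of these (-0.78, adjusted p = 0.09, edgeR), with 15.8, 14.2 and 16.5 CPM untreated, 55.1, 43.5 and 43.9 CPM with IL-4, 51.1, 55.9 and 52.7 CPM in the difference and 104, 96.2 and 84.4 CPM in the remainder. The Wnt3a baseline of *Nfil3* thus already overlapped the IL-4 level, and the remainder lay above both. In the list, 5 genes were near additive, 10 were undetermined and 0 had an interaction called by edgeR (9 at an unadjusted p under 0.05), while DESeq2 called 2, *Nfil3* (adjusted p = 0.00312) and *Bhlhe40* (adjusted p = 0.0435). Its median interaction was -0.03 (0.00 over all tested genes).

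Among 17 tested secreted products, 7 were higher and 2 lower with IL-4 alone and 5 higher and 2 lower with Wnt3a, 4 in both the same way, with 0 interactions called by edgeR (7 at an unadjusted p under 0.05) and a median of 0.02. DESeq2 called 4 interactions, *Retnla*, *Rnase2a*, *Mmp12* and *Igf1* (adjusted p at most 0.0369). Those of *Retnla* and *Rnase2a* rest on groups at the floor. *Mmp12*, a macrophage elastase, rose by 1.56 and 0.79 (adjusted p = 4e-05 and 0.0069, edgeR). *Ear2*, for which 41.5% of the 50-base stretches occur in other genes, was called with IL-4 alone and not between the parts, and had 3.03 to 6.29 CPM there and at most 0.46 CPM in the remainder. Among 22 tested enzymes, 6 were higher with IL-4 alone, 9 were higher and 1 lower with Wnt3a, and 0 interactions were called by edgeR (6 at an unadjusted p under 0.05; median 0.01) and 1 by DESeq2, *Sat1* (adjusted p = 0.00132). *Cdh1*, E-cadherin, was at least 4.37-fold higher with IL-4 alone and at least 3-fold higher in the remainder than in the difference. *Flrt2*, a leucine-rich transmembrane protein, rose by 1.60 and 1.32 (adjusted p at most 0.0045, edgeR), and its interaction of -0.28 went to 0.060 without the difference of mouse 1. *Sat1*, which acetylates polyamines for export, was called higher between the parts (0.90, adjusted p = 0.00018, edgeR) and not with IL-4 alone. Its interaction was 0.77 (adjusted p = 0.082, edgeR).

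The lectin and surface receptor list had 25 tested genes, with 7 higher and 4 lower with IL-4 alone, 8 higher and 5 lower with Wnt3a, and 11 in both the same way. It held 2 of the 13 called interactions, *Itgax* and *Cd83*, and 7 near additive genes among the 13 called in either comparison (528 of 852 over all genes). *Clec7a*, the β-glucan receptor dectin-1, rose by 1.39 and 1.12, *Cx3cr1*, the fractalkine receptor, fell by 1.14 and 1.44 on the log2 scale, and *Clec4n*, the fungal lectin dectin-2, fell by 1.09 and 1.06 (adjusted p at most 0.0013, edgeR). *Pdcd1lg2*, the checkpoint ligand PD-L2, rose by 3.10 and 3.11 from few reads (adjusted p = 0.0023 and 0.00018, edgeR), and its interaction of 0.01 went to -1.02 without the untreated library of mouse 1.

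MHC class II genes, which present peptides to helper T cells, had 11 tested members, and 7 rose in both comparisons. *Cd74*, the invariant chain, had 411, 370.2 and 392 CPM in untreated cells, 1406, 1326 and 1090 CPM with IL-4, 1569, 2076 and 1890.4 CPM in the difference and 3691, 3698 and 3102 CPM in the remainder, and the 4 groups did not overlap. The log2 changes were 1.70 and 0.92 (adjusted p = 2.1e-06 and 0.00038, edgeR; interaction -0.78, adjusted p = 0.12, edgeR). The 7 genes, *Cd74*, *H2-Aa*, *H2-Ab1*, *H2-Eb1*, *H2-DMa*, *H2-DMb1* and the transactivator *Ciita*, all had a smaller log2 change with Wnt3a (7 of 7, against 121 of the 219 genes called in both), and 0 of the 11 interactions was called by edgeR (4 at an unadjusted p under 0.05). DESeq2 called 2, *Cd74* (adjusted p = 0.00259) and *H2-Ab1* (adjusted p = 0.0496). The dendritic cell list had 3.83 to 4.57 CPM in untreated cells, 9.45 to 10.7 CPM with IL-4, 4.94 to 9.33 CPM in the difference and 11.96 to 26.3 CPM in the remainder. It was higher with IL-4 than in untreated cells and higher in the remainder than in the difference. Unlike *Cd74*, it was lower in the difference than with IL-4. *Batf3*, which itself rose in both comparisons, is among its leading genes. The part of such cells was not tested. The median over the 11 genes was 0.98 with IL-4 alone, 0.53 with Wnt3a and -0.30 for the interaction. In CPM the order was the opposite, since 0 of the 7 had a smaller step with Wnt3a. For *H2-Aa* the step with Wnt3a was 304 ± 128 CPM (SD, n = 3 mice) larger, from a baseline of 611 ± 111 CPM in the difference against 106 ± 8.08 CPM in untreated cells (SD, n = 3).

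Of 17 tested chemokines, 3 fell with IL-4 alone and 5 rose and 1 fell with Wnt3a, with 1 in both. *Ccl22*, a ligand of CCR4, had 0.43, 0.257 and 0.314 CPM untreated, 2.4, 3.71 and 1.23 CPM with IL-4, 26.4, 8.67 and 6.4 CPM in the difference and 83.6, 37.7 and 33.4 CPM in the remainder, and rose between the parts (1.88, adjusted p = 0.026, edgeR). *Ccl17*, the other CCR4 ligand, had 0.744, 0.244 and 0.0727 CPM in the difference and 4.72, 0.922 and 1.45 CPM in the remainder, 0 counts in untreated cells and at most 0.539 CPM with IL-4. It was called in neither comparison, like the interferon-induced *Cxcl9* (-1.28 and -0.33). *Ccl7* (3.03), *Ccl8* (3.55), *Ccl12* (2.42) and *Ccl24* (1.96) rose between the parts (adjusted p at most 0.014, edgeR) without a call for IL-4 alone or for the interaction. *Ccl3* fell in both (-0.95 and -0.48) and *Ccl4* with IL-4 alone (-0.92, against 0.06 with Wnt3a; interaction 0.98, adjusted p = 0.082, edgeR). The median interaction of the list was 0.63, with 0 calls by edgeR (4 at an unadjusted p under 0.05) and 1 by DESeq2, *Ccl4* (adjusted p = 0.0025).

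Genes that IL-4 is known to restrain had 22 tested members, of which 3 fell with IL-4 alone and 6 with Wnt3a. *Cd14*, the lipopolysaccharide co-receptor (-0.51 and -0.57), and *Tlr2* (-0.71 and -0.79) were near additive, while *Marco*, a scavenger receptor, fell by 1.60 and by 0.81 on the log2 scale (adjusted p = 2.9e-05 and 0.0017, edgeR; interaction 0.78, adjusted p = 0.15, edgeR). *Il1b* fell between the parts (-1.56, adjusted p = 0.0046, edgeR), against -0.30 with IL-4 alone. It had 187, 248 and 190.3 CPM in the difference and 59.6, 109 and 43.1 CPM in the remainder. *Nos2*, the nitric oxide synthase of inflammatory macrophages, *Il1a* and the interferon-induced *Ifit3* were called in neither comparison. *Nos2* was at the floor in untreated cells and *Il1a* with IL-4, so no size is given, the interaction of *Ifit3* was 0.65, and 51.2% of the 50-base stretches of *Ifit3* occur in other genes. Of 22 tested paired receptors, 4 were higher and 5 lower with IL-4 alone, 5 higher and 8 lower with Wnt3a, 8 in both the same way, and 9 were near additive. *Fcgr2b*, the inhibitory IgG receptor, rose by 1.58 and 0.95, and *Siglecf*, a sialic acid-binding receptor, by 2.53 and 1.39 (adjusted p at most 0.048, edgeR). *Siglecf* also leads the list for mast cells, basophils and eosinophils, which summed to 0.54 to 1.00 CPM in untreated cells, 2.45 to 4.20 CPM with IL-4, 0.687 to 1.45 CPM in the difference and 1.61 to 2.40 CPM in the remainder. Of its 10 genes 1 was tested, 6 had 3 counts or fewer in every library and 4 of these (*Fcer1a*, *Il5ra*, *Ms4a2* and *Mcpt4*) were at 0, while *Gata2* and *Cpa3* followed *Siglecf* in level. The part of such cells was not tested.

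In the PGE2 list, 12 of 13 genes were tested, 2 were higher with IL-4 alone and 1 was higher and 1 lower with Wnt3a. *Ptgs1*, the constitutive cyclooxygenase, was the gene that rose in both, with 33.7, 31.8 and 36.1 CPM untreated, 79.9, 101 and 95.1 CPM with IL-4, 17.6, 19.8 and 32.1 CPM in the difference and 71.9, 67 and 86.9 CPM in the remainder (1.44 and 1.71, adjusted p at most 0.00026, edgeR; interaction 0.27, 95% interval -0.27 to 0.80). *Hpgd*, which breaks PGE2 down, fell between the parts (-0.92, adjusted p = 0.036, edgeR), from values of 20.3 to 32.4 CPM in the difference to values of 8.38 to 19.8 CPM in the remainder. Both parts lay below the 157 to 184 CPM of untreated cells and the 111 to 131 CPM with IL-4. *Ptger2*, a PGE2 receptor coupled to cyclic AMP, rose with IL-4 alone (0.54, adjusted p = 0.023, edgeR). The inducible cyclooxygenase *Ptgs2* (-0.02, 95% interval -1.13 to 1.09), the synthase *Ptges* (-0.02, -0.54 to 0.50) and the receptor *Ptger4* (-0.11, -0.44 to 0.22) were called in neither comparison, nor was the receptor *Ptger3*. The *Ptges* interaction went to 0.27 without mouse 2. *Pla2g4a*, the phospholipase that frees arachidonic acid, was higher with IL-4 alone and lower in the remainder in every mouse (0.55 and -0.57), with no call in either comparison and an interaction of -1.12 (adjusted p = 0.12 by edgeR and 0.0102 by DESeq2).

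Of 22 tested STAT3 and cyclic AMP response genes, 2 were higher and 3 lower with IL-4 alone and 2 were higher with Wnt3a, with 1 in both. *Nr4a1*, an immediate early nuclear receptor, fell with IL-4 alone (-1.20, adjusted p = 0.0092, edgeR) and had 0.09 with Wnt3a. *Vegfa*, the vascular growth factor, fell with IL-4 alone (-0.65, adjusted p = 0.024, edgeR) and had -0.01 with Wnt3a. *Osm*, a cytokine of the IL-6 family, fell with IL-4 alone in every mouse and had more in the remainder in every mouse (-0.59 and 0.34), but its interaction missed the threshold by edgeR (0.93, adjusted p = 0.082) and passed it by DESeq2 (adjusted p = 0.00601). Of 20 Wnt target genes, 8 were tested and 4 rose in both comparisons. *Myc* rose by 0.77 and 1.49 and *Ccnd1*, cyclin D1, by 0.95 and 1.56 (adjusted p at most 0.0051, edgeR), from baselines that were lower in the difference (2.75 to 3.11 CPM for *Ccnd1*) than in untreated cells (22 to 32.3 CPM). Of the exon bases of *Ccnd1*, 23.4% overlap a gene on the other strand. *Ctnnb1*, β-catenin itself, rose by 0.44 and 0.39, and *Cd44*, the hyaluronan receptor, by 0.35 and 0.54 (adjusted p at most 0.019, edgeR). *Rnf43*, which removes Frizzled receptors, was called in neither comparison (-0.68 and -0.06). *Axin2*, the feedback gene of β-catenin signalling, reached at most 13 counts and was not tested, nor was *Il6* with at most 3.

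Of 25 tested genes of toll-like receptor and NF-κB responses, 1 was higher and 3 lower with IL-4 alone and 2 higher and 6 lower with Wnt3a, and *Lcn2* had the called interaction. *C3*, the central complement component, rose by 0.94 and 0.69 (adjusted p = 0.0012 and 0.0096, edgeR). *Marcksl1*, an actin-regulating substrate of protein kinase C, fell by 0.82 and 0.37 on the log2 scale (adjusted p = 0.00013 and 0.039, edgeR). *Cfb*, complement factor B, had 0.161, 0 and 0 CPM untreated, 0, 0.128 and 0.361 CPM with IL-4, 13.9 to 22.5 CPM in the difference and 8.54 to 15.9 CPM in the remainder. *Cxcl10*, an interferon-induced chemokine, fell with IL-4 alone (-1.16, adjusted p = 0.034, edgeR) and had -0.82 with Wnt3a. The untreated libraries of *Cfb* were at the floor, so its interaction has no size. An overlapping gene on the same strand shares 79.5% of the exon bases of *Cfb*. *Saa3*, an acute-phase apolipoprotein, fell between the parts (-1.60, adjusted p = 0.0025, edgeR), with -0.24 for IL-4 alone. It had 2311, 3932 and 3826 CPM in the difference and 998, 1475 and 854 CPM in the remainder. The genes of the study's own interest that remain, *Il10* (-0.39, 95% interval -1.41 to 0.63), *Tgfb1* (-0.12, -0.39 to 0.15) and the chemokine receptor *Cxcr3* (0.32, -0.16 to 0.80), had uncalled interactions. *Cxcr3* fell in both comparisons, by 1.18 with IL-4 alone and by 0.85 with Wnt3a on the log2 scale (adjusted p at most 0.0066, edgeR).

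Exchanging the parts changed most of these results. With the difference taken as Wnt3a+IL-4, the interaction was called in 910 genes (7.33%), 361 positive (2.91%) and 549 negative (4.42%), and in 903 of them the interaction had the opposite sign of the change with IL-4 alone. The count was 265 without mouse 3 and 1459 without mouse 2. Of the 852 genes, 95 were near additive, 278 blunted, 386 amplified and 93 undetermined. Where the highest group averaged 8 CPM or more, the highest called values belonged to *Pilra* (3.58), *Pilrb1* (3.37) and *Adgb* (3.18), the androglobin gene (adjusted p at most 0.0014, edgeR). The lowest were *Rnase2a*, *Arg1* and *Retnla*, whose values rest on groups at the floor and have no size. No reading is drawn from their calls (adjusted p at most 0.044, edgeR). In this reading the parts would mean that IL-4 lowered *Egr2*, *Mrc1* and *Slc7a2* in cells with Wnt3a and raised *Pilra*, each opposite to IL-4 alone. These genes had been chosen in the first assignment for the same direction in both comparisons. Exchanging the parts therefore had to turn their signs, and nothing about the assignment is drawn from it.

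The interaction was called the same way in both assignments in 4 genes (0.0322%), *Mpp6*, *Txnip*, *Itgax* and *Trpm2*. Their values with the reverse assignment were -1.64, -0.48, -5.00 and 0.52 (adjusted p = 2.6e-05, 0.011, 2.2e-10 and 0.047, edgeR). In *Mpp6*, *Txnip* and *Trpm2* the parts were close to each other, so the change with IL-4 alone set the sign either way. In *Itgax* the parts were far apart and only the sign was shared. With Wnt3a, IL-4 would raise *Itgax* in the first assignment and lower it in the reverse. With the mouse as replicate block 2 genes were called the same way in both assignments, and with single libraries left out between 0 and 5. The count was 5 without the remainder of mouse 2 and at most 2 without each of the other 11 libraries. With the columns used as labelled, whose Wnt3a-containing values share reads, 142 of 13368 genes were called (1.06%), 28 positive and 114 negative, and 48, 36 and 11 without mouse 1, 2 and 3.

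**Figure D5:**
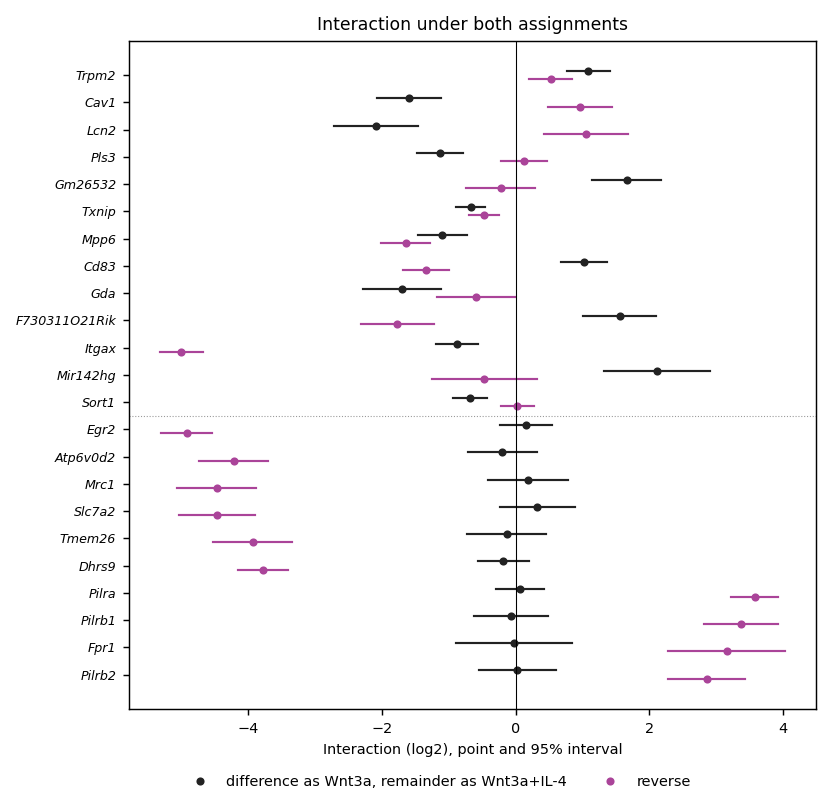
Interaction on the log2 scale with its 95% interval for the 13 called genes (above the dotted line) and 10 near additive genes (below), in black with the difference as Wnt3a and in purple with the reverse assignment. The near additive genes, chosen by their values in the first assignment, lie between -0.20 and 0.32 in black and between -4.92 and 3.58 in purple. *Trpm2*, *Txnip*, *Mpp6* and *Itgax*, called the same way in both assignments, keep their side.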

How the data were processed

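RNA-seq libraries of BMDMs from 3 mice in 4 groups (12 samples) were analysed. The authors deposited raw counts per gene, and per the labels and the submitters' processing notes reads were checked with FastQC (0.11.7), trimmed with Trimmomatic (0.36), aligned to mm10 with STAR (2.6.0) and SAMtools (1.9) and counted with HTSeq (0.11.1), with DESeq2 (1.24.0) also listed. The strand setting of the counting is not given in the sources used here. The Wnt3a and Wnt3a+IL4 columns share reads and were solved for a difference and a remainder in each mouse.

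Genes were kept where 3 or more libraries held 10 counts or more. Counts were scaled by TMM and fitted across the 4 groups with edgeR (4.0.16, R 4.3.3), and quasi-likelihood F-tests were adjusted by Benjamini-Hochberg at 0.05. Standard errors and 95% intervals come from the same fit. A group with at most 3 counts in every library is at the floor, and folds against it are bounds that cover counting error only. The total counts of 13342492 to 17453377 set this precision. Fits were tested on simulated data. Promoter windows come from RefSeq (GRCm38.p6).

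Every mouse contributed to every group, so the labels pair the samples. Same-mouse deviations from the group means correlated between -0.42 and 0.45, and 6 of 18 pairs were over 0.1. Blocked values are given where they change the edgeR interaction call of a gene chosen by the rules below. Calls with IL-4 alone or between the parts were not followed gene by gene in the blocked fit. Alternatives were other scalings, count filters, DESeq2 (1.42.0), the mouse as block, a stricter threshold, a narrower margin and left-out mice and libraries, and the CPM scale was added after seeing the data.

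Genes named are those the study discusses for BMDMs, the called interactions, the 6 highest and 4 lowest near additive genes, the 3 highest and 3 lowest values of the reverse assignment, the 4 largest excesses with Wnt3a and the 4 largest IL-4 changes of each list, with a mean of at least 8 CPM where ranked outside the lists. Further members were chosen after their values were seen. The comparison, its members and the gene lists were chosen with earlier results of these data known.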

Additional observations from a re-analysis of the deposited data

Results flagged for a closer look

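The IL-4 change differed between cells with and without Wnt3a, by the test of the interaction itself, in 13 genes (edgeR, adjusted p under 0.05, first assignment). The positive values were 2.11 for *Mir142hg*, 1.66 for *Gm26532*, 1.56 for *F730311O21Rik*, 1.09 for *Trpm2* and 1.02 for *Cd83*. The negative values were -2.08 for *Lcn2*, -1.70 for *Gda*, -1.59 for *Cav1*, -1.13 for *Pls3*, -1.09 for *Mpp6*, -0.88 for *Itgax*, -0.68 for *Sort1* and -0.67 for *Txnip*. In 9 of the 13 the change between the parts was opposite to that with IL-4 alone in every mouse.

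The same split of directions in every mouse, without an interaction called by edgeR, was present in *Osm* (0.93) and *Pla2g4a* (-1.12). DESeq2 called both (adjusted p = 0.00601 and 0.0102). With 3 libraries a group, no single library was tested as standing apart from its group.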

How the results depend on the processing

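All 13 called interactions, chosen by these same data, kept their sign under every alternative fit on the log2 scale, and in CPM *Itgax* had 32.4 in place of -0.88. Of the 13, 11 remained called with DESeq2 size factors, 9 with total count scaling and 11 with at least 1 CPM in 3 libraries. All 13 remained called with DESeq2 and with all genes kept. Under total count scaling the median log2 change with IL-4 alone was -0.06 over all genes, against -0.003 in the main fit. With the mouse as replicate block 9 of the 13 remained among 11 calls. The reverse assignment gave 854 and the columns as labelled 196, and the count called in both assignments was 2. This blocked fit called 391 genes with IL-4 alone and 556 between the parts, and 452 were near additive. With every gene of at least 1 count kept, counts rose to 575 (interaction), 1505 (reverse), 71 (both), 812 (IL-4 alone), 1454 (between the parts), 1028 (near additive), 143 (blunted) and 362 (amplified); the estimated spread between genes then had infinite prior degrees of freedom, and whether this caused the rise was not tested. DESeq2 called 165 (interaction), 28 (both) and 261 (columns as labelled), with 45 blunted and 96 amplified, and the cause was not tested. At an adjusted p under 0.01 the counts fell to 0, 472, 0, 227 and 279 in the order interaction, reverse, both, IL-4 alone and between the parts, with 246 near additive, 0 blunted, 0 amplified and 65 for the columns as labelled. Total count scaling left 3 blunted genes, a margin of 1.5-fold 253 near additive genes, and the reverse assignment 95 near additive, 278 blunted and 386 amplified genes.

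With single mice or libraries left out, counts ranged from 0 to 43 (interaction), 265 to 1459 (reverse), 0 to 5 (both), 77 to 532 (IL-4 alone), 97 to 1188 (between the parts), 64 to 816 (near additive), 0 to 11 (blunted), 0 to 32 (amplified) and 11 to 137 (columns as labelled). Of 1866 values of 86 named genes, 161 lost and 39 gained the call, and 97 in 22 genes had the other sign, of which 0 were called in either fit and 88 came from left-out mice or libraries. Where the sign changed with a move of over 1 standard error, the values ranged from -0.34 to 0.27 (*Ptges*), -0.51 to 0.45 (*Fpr1*), -0.50 to 0.060 (*Flrt2*), -0.85 to 0.11 (*Mgl2*), -1.02 to 0.57 (*Pdcd1lg2*) and -5.75 to 0.032 (*Cfb*, at the floor in untreated cells and so of no size).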
